A study of Mus musculus with 6 samples.

Results

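The genes described here are those whose symbol begins with Kif and a digit, which in the mouse are the genes of most kinesin motors. Of 53700 gene rows, 42 carried such a symbol, and 30 of these had 60 or more counts summed over the 6 libraries. The list follows the symbol and not the protein, so it also holds Kif1bp, a kinesin-binding protein that is not a motor, the pseudogenes Kif22-ps and Kif4-ps, and the antisense transcript Kif16bos. The libraries were made from polyA RNA of pools of 10 germinal vesicle (GV) oocytes on a C57BL/6N background, 3 from Zar1 knockout animals (labelled Zar -/-) and 3 from wild-type animals (labelled Zar +/+). ZAR1 is an RNA-binding protein of the oocyte, and the series concerns how oocytes store mRNA near their mitochondria. The comparison asks which kinesin mRNA levels differed in oocytes without Zar1. Which bases of Zar1 were deleted, and how old the animals were, is not stated by the labels. The labels call the 3 pools of a genotype biological replicates but do not say whether they came from different animals. A p-value here therefore reflects only how pools varied, which may in part be technical.

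Kinesins turn ATP hydrolysis into movement along microtubules or, in the kinesin-13 family, into removal of tubulin from microtubule ends. Division kinesins build the spindle, move and align chromosomes and organise the cleavage site, whereas transport kinesins carry vesicles, organelles and RNA, and a further set serves cilia. The GV oocyte is arrested in meiotic prophase and has no spindle. When meiosis resumes it assembles one without centrioles, from proteins made in part from stored mRNA.

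Gene counts summed to between 35066851 and 37946223 in the knockout libraries and to between 32126555 and 39148833 in the wild-type libraries. Zar1 had 69, 96 and 226 counts in knockout libraries, against 15245, 13612 and 12810 in wild-type libraries (log2 fold change -6.75 ± 0.36 SE, adjusted p = 1.15e-05). All 12 oocyte markers examined were measured, and they summed to between 22680 and 24700 CPM (counts relative to the TMM-scaled size of the library) in knockout libraries and between 20780 and 22170 CPM in wild-type libraries. Of these 12, 6 rose (1.24-fold to 1.53-fold, the zona pellucida gene Zp3 most), Bmp15 fell and 5 did not pass. Thus 58.3% passed an adjusted p of 0.05, against 33.4% of all genes tested. The 20 granulosa and cumulus markers summed to between 139.5 and 145.7 CPM in knockout libraries and between 129.5 and 139.4 CPM in wild-type libraries. Of the 15 that were tested, Nr5a2 rose (77.8 ± 5.50 CPM in knockout, 51.8 ± 3.16 CPM in wild type, adjusted p = 0.00143), Gata4 (11.2 ± 3.01 and 19.6 ± 0.909 CPM, adjusted p = 0.0122) and Kitl (0.796 ± 0.472 and 4.02 ± 0.320 CPM, adjusted p = 0.00222) fell, and 12 did not pass. Here 20% passed, against 33.4% of all genes tested. Most of the sum came from Nr5a2, Cyp19a1 and Gata4, while Amh (0.0544 ± 0.0458 CPM in knockout, 0.0437 ± 0.0389 CPM in wild type) and Foxl2 (0.129 ± 0.0699 and 0.0780 ± 0.0747 CPM in the same order) were near 0. The part of these markers in the results below was not tested. A level is a share of the polyA RNA in its pool, so fewer transcripts of a gene per oocyte and a gain of all other transcripts cannot be told apart. Nor can either be told apart from a change in how much of the transcript was captured as polyA RNA, since tail length was not measured. Genes said to rise or fall below did so in this share.

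Loss of Zar1 was accompanied by changes of kinesin mRNAs in both directions, mostly below 1.5-fold. All 30 genes with 60 or more counts passed the filter on low counts. Of these, 7 rose, 6 fell and 17 did not pass, at an edgeR quasi-likelihood test with a Benjamini-Hochberg adjusted p of 0.05. The share of called Kif genes was thus 43.3%, against 33.4% of all 16473 genes tested and 37.3% of the 12956 protein-coding genes tested. Rises made up 14.9% and falls 18.5% of all genes tested, and 17% and 20.3% of the protein-coding genes tested. The median log2 fold change of the 30 genes was 0.05, against 0.00745 over all genes tested. Called changes over 1.5-fold were found in 4 of the 30 genes (13.3%), against 22.1% of all genes tested. The knockout and wild-type levels did not overlap in 18 Kif genes (60%), with 9 higher and 9 lower in the knockout libraries. The share was 47.8% of all genes tested (22.2% higher and 25.5% lower) and 50.8% of the protein-coding genes tested. The balance depended on the scaling: upper-quartile factors gave 9 rises and 3 falls, no scaling factors 5 rises and 8 falls, and the GC and length correction 8 rises and 2 falls. Without Kif1bp, 6 of 29 genes rose and 6 fell.

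**Figure D1:**
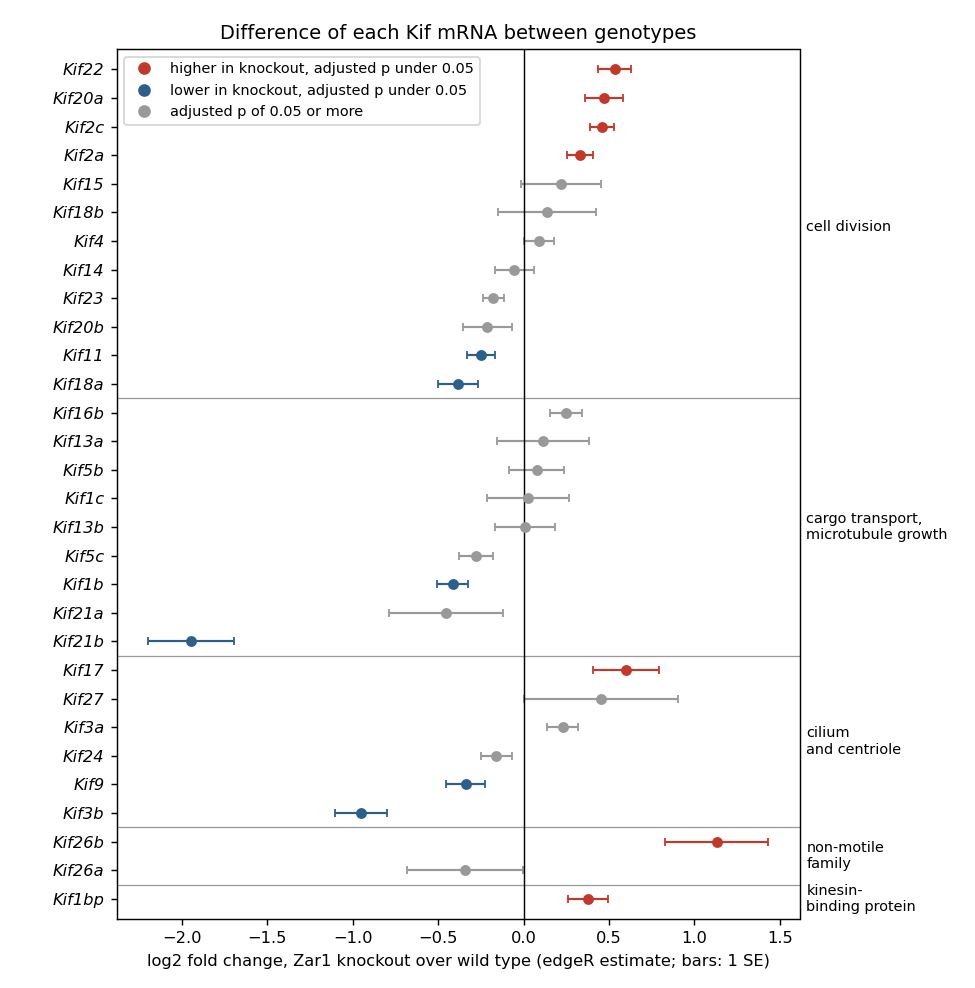
Difference of each of the 30 Kif mRNAs, as the edgeR log2 fold change of Zar1 knockout over wild type (horizontal axis) with 1 SE as the bar, grouped by role and ordered by size. Red marks the 7 genes that rose, blue the 6 that fell and grey the 17 that did not pass; the values run from -1.95 for Kif21b to 1.13 for Kif26b.

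The calls differed in how well they held. Kif22, Kif2c and Kif2a, which rose, and Kif3b and Kif21b, which fell, kept their call under all 15 alternatives tried. Each of the other 8 called genes lost it under at least 1 alternative. The alternatives were other scaling factors, filters and tests, a correction for transcript GC content and length, and leaving out each library. Over them, the adjusted p ran from 0.00075 to 0.0534 for Kif20a, 0.000648 to 0.0806 for Kif1b, 0.000586 to 0.0760 for Kif26b and 0.00157 to 0.107 for Kif1bp. It ran from 5.02e-06 to 0.282 for Kif17, 0.0086 to 0.164 for Kif9, 0.00717 to 0.704 for Kif18a and 0.0266 to 0.998 for Kif11.

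**Figure D2:**
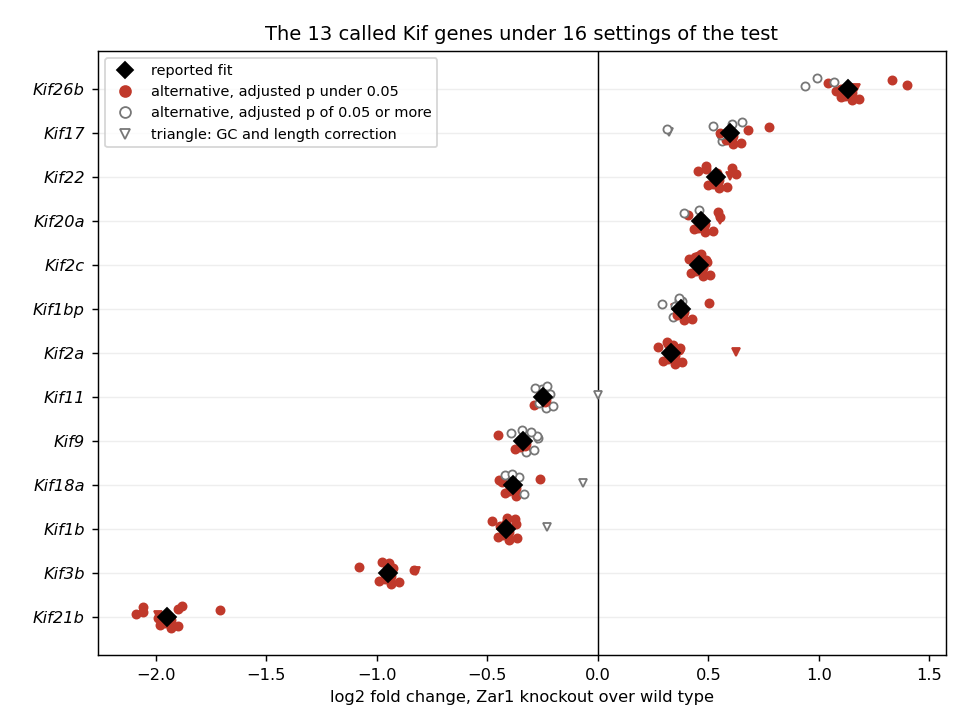
The 13 called Kif genes (rows) under 16 settings of the test, with the log2 fold change of Zar1 knockout over wild type on the horizontal axis. The black diamond is the reported fit, filled symbols are alternatives with an adjusted p under 0.05 and open symbols alternatives that missed it; triangles mark the GC and length correction, which placed Kif11 at -0.00052.

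The Kif mRNA pool of the oocyte was dominated by a few genes. Kif22, Kif17 and Kif23 together held 61.8%, 67.2% and 63.0% of all counts in the 42 Kif genes in knockout replicates 1, 2 and 3, against 57.9%, 61.1% and 59.1% in wild-type replicates 1, 2 and 3. Per kilobase of exon, Kif22 stood at 270 CPM in knockout and 187 CPM in wild type, where it ranked 240 among 16473 tested genes. Kif17 ranked 301 and Kif23 ranked 638 in wild type on the same scale. At the other end, Kif26b ranked 14423. Levels per kilobase rest on the merged exons of all annotated isoforms and understate a gene of which the oocyte uses a short isoform.

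All Kif genes together took 0.432%, 0.487% and 0.442% of gene counts in the knockout libraries, against 0.379%, 0.389% and 0.385% in the wild-type libraries. Every knockout library lay above every wild-type library, by 1.18-fold on average. Without Kif17 and Kif22, which were left out after their values were seen, the share was 0.219 ± 0.00352% in knockout and 0.222 ± 0.00376% in wild type (SD, n = 3 each). Removing these 2 genes, the most abundant of the pool and both called higher, lowers the knockout share against wild type by construction. It does not by itself set which group is higher afterwards. Other members moved beneath that result, with Kif2c higher and Kif3b lower. Kif23, the third, made up 12.9%, 11.3% and 13.2% of Kif counts in the knockout libraries, against 17.4%, 16.95% and 16.7% in the wild-type libraries. This part also shrinks when Kif22 and Kif17 rise, and the level of Kif23 itself did not pass (log2 fold change -0.18, adjusted p = 0.0552).

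**Figure D3:**
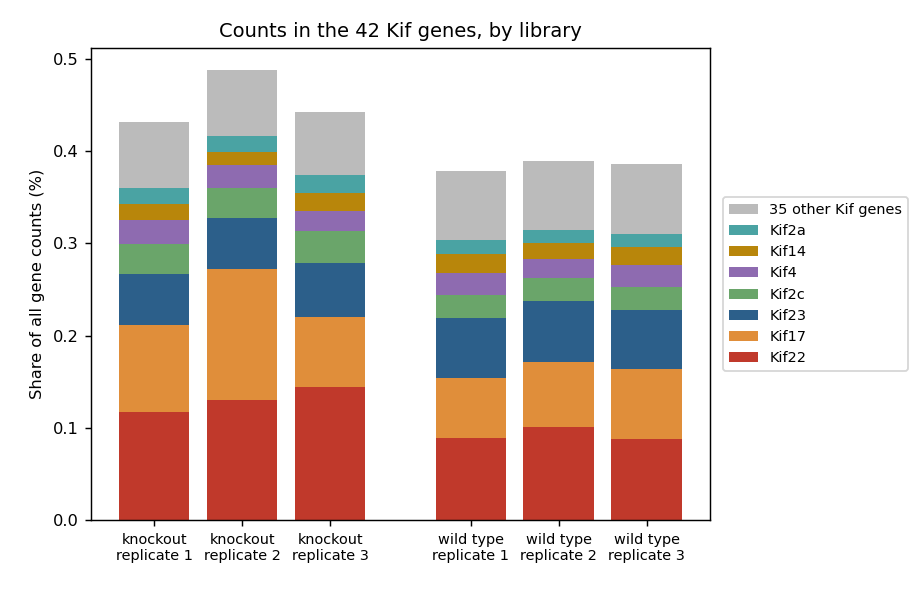
Share of all gene counts that lay in the 42 Kif genes (vertical axis, percent), 1 bar per library with the knockout libraries on the left, split by gene. The bars reach 0.432%, 0.487% and 0.442% in knockout and 0.379%, 0.389% and 0.385% in wild type, and the Kif22 segment is taller in each knockout bar than in any wild-type bar.

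Of the 12 division kinesins, 4 rose, 2 fell and 6 did not pass (50% called, against 33.4% of all genes tested). The largest rise in absolute terms was that of Kif22, which encodes Kid, a chromokinesin that binds DNA and pushes chromosome arms away from the spindle poles. It had 1178, 1330 and 1465 CPM in knockout libraries, against 867, 1010 and 867 CPM in wild-type libraries (1.45-fold, log2 fold change 0.53 ± 0.10 SE, adjusted p = 0.00319). The groups did not overlap, and its lowest knockout library exceeded its highest wild-type library.

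Both reported kinesin-13 genes of the division class rose. Kif2c encodes MCAK, a depolymerase at centromeres that helps to correct wrong attachments of chromosomes. Its mRNA reached 328, 329 and 359 CPM in knockout libraries, against 242, 247 and 251 CPM in wild-type libraries (1.38-fold, 0.46 ± 0.07 on the log2 scale, adjusted p = 0.00116). Kif2a encodes a depolymerase that works at spindle poles, and had 174, 172 and 194 CPM in knockout libraries, against 146, 141 and 141 CPM in wild-type libraries (1.26-fold, 0.33 ± 0.07, adjusted p = 0.00906). In neither gene did the groups overlap. With the GC and length correction Kif2a reached 0.63 on the log2 scale. Exons of Kif2a share 19.2% of their bases with Dimt1 on the other strand, whose level did not pass (0.21 ± 0.11, adjusted p = 0.194). Kif24, the kinesin-13 of centrioles, did not pass (-0.16, adjusted p = 0.214).

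Kif20a encodes MKLP2, which brings the chromosomal passenger complex to the central spindle in cytokinesis. It had 62.3, 54.7 and 66.0 CPM in knockout libraries, against 39.7, 48.9 and 43.7 CPM in wild-type libraries, with no overlap (1.38-fold, 0.47 ± 0.11, adjusted p = 0.0114). The adjusted p was 0.0534 without wild-type replicate 1 and 0.0503 without wild-type replicate 3. Its exons share 29.3% of their bases with Cdc23 on the other strand, which also rose (0.58 ± 0.13, adjusted p = 0.00971), and whether counting used strand is not stated. Its relatives in the kinesin-6 family did not pass. Kif23 encodes MKLP1, the motor of the centralspindlin complex, and had 557, 562 and 594 CPM in knockout libraries, against 639, 661 and 635 CPM in wild-type libraries. The knockout libraries all lay below the wild-type libraries, but the difference did not pass (-0.18 ± 0.06, adjusted p = 0.0552). It passed with no scaling factors, in limma-voom and without knockout replicate 3, where the adjusted p was as low as 0.0205. Kif20b, which acts in cytokinesis, stood at -0.21 (adjusted p = 0.295). The count ratio of Kif20a to Kif23 was 0.112, 0.0973 and 0.111 in knockout libraries and 0.0620, 0.0739 and 0.0688 in wild-type libraries. This ratio restates the values above, of a gene that rose over one that was lower without passing, and was not tested.

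Kif11 and Kif18a fell, each by less than 1.4-fold. Kif11 encodes Eg5, the kinesin-5 that pushes spindle poles apart and without which spindles stay monopolar. It had 47.0, 49.6 and 49.1 CPM in knockout libraries, against 58.1, 55.4 and 59.8 CPM in wild-type libraries (1.19-fold lower, -0.25 ± 0.08, adjusted p = 0.0431). Kif18a encodes the kinesin-8 that dampens chromosome movement at the spindle equator. It had 53.7, 54.5 and 41.1 CPM in knockout libraries, against 67.7, 61.9 and 65.0 CPM in wild-type libraries (1.30-fold lower, -0.38 ± 0.12, adjusted p = 0.0346). The groups did not overlap in either gene. The fall of Kif11 missed the threshold in 10 of 15 alternatives, among them leaving out knockout replicate 1 or 2 or any wild-type library (adjusted p 0.0718 to 0.152), and that of Kif18a with upper-quartile factors (0.0523) and without any 1 wild-type library (0.0653 to 0.105). With the GC and length correction, Kif11 stood at -0.00052 (adjusted p = 0.998) and Kif18a at -0.0676 (adjusted p = 0.704).

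The other division kinesins did not pass. Kif4, a chromokinesin and partner of PRC1 at the spindle midzone, had 255, 249.5 and 212 CPM in knockout libraries and 225, 211 and 236 CPM in wild-type libraries, which overlapped (0.09 ± 0.09, adjusted p = 0.472). Kif14, which acts in cytokinesis, was at -0.06, Kif15, which can take over from Eg5, at 0.22, and Kif18b, a partner of MCAK, at 0.14 (adjusted p between 0.513 and 0.751). Exons of Kif4 share 15.1% of their bases with Pdzd11 on the other strand, which rose (0.37 ± 0.09, adjusted p = 0.0121).

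**Figure D4:**
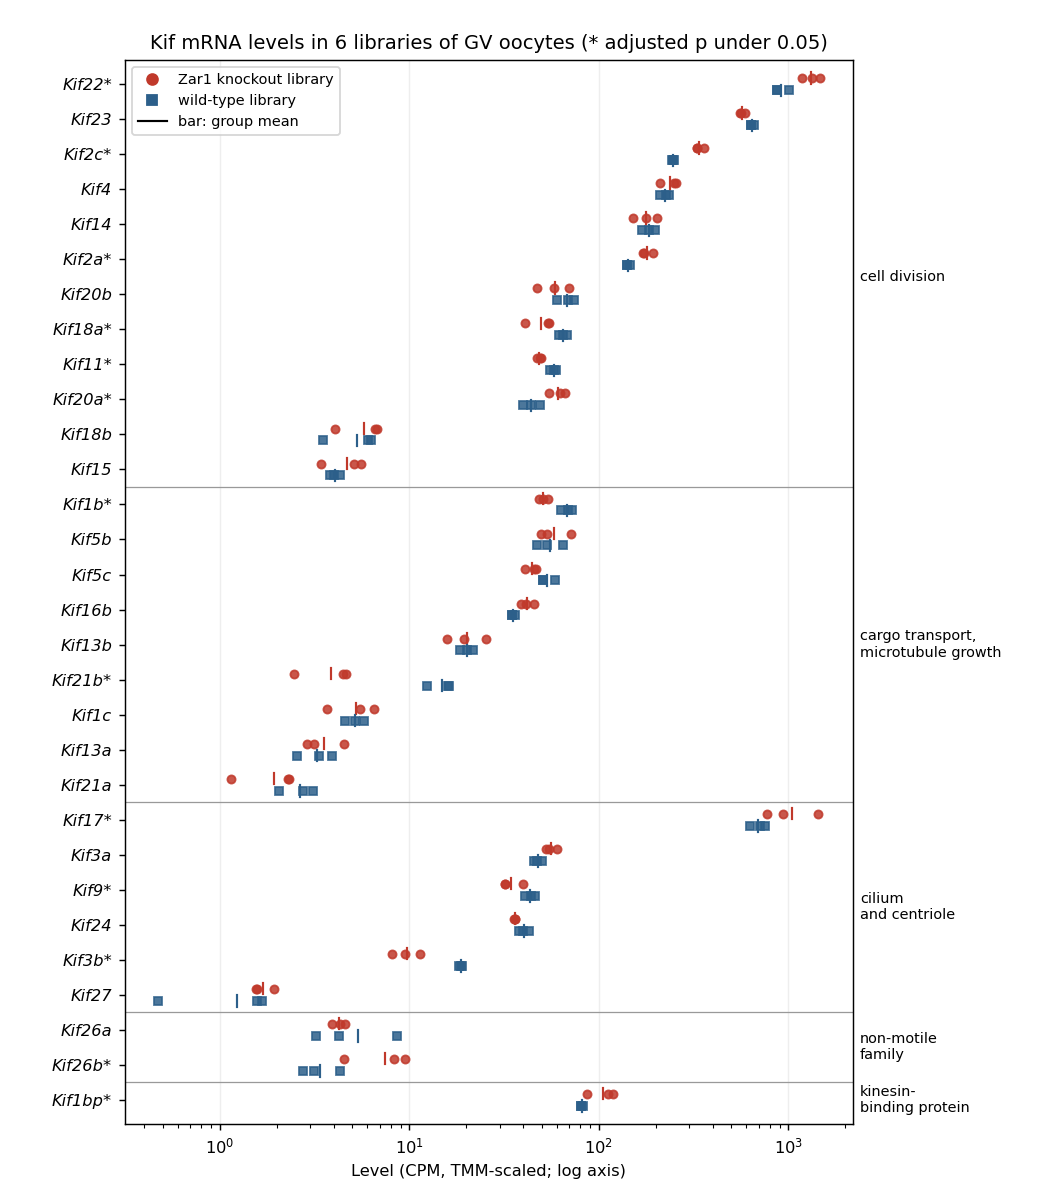
Level of each of the 30 Kif mRNAs in every library, in CPM on a log axis, grouped by role and ordered by wild-type level. Red circles are the 3 knockout libraries, drawn above the blue squares of the 3 wild-type libraries, vertical bars are group means and asterisks mark adjusted p under 0.05; Kif22 (1324 ± 144 CPM in knockout, 915 ± 82.9 CPM in wild type) and Kif17 (1052 ± 344 and 695 ± 64.0 CPM) stand at the top.

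The promoters of division kinesins often carry the cell cycle homology region, the element TTTGAA or TTCGAA through which MuvB complexes time transcription to the cell cycle. It was searched on both strands in the 300 bases from 250 before to 50 after each RefSeq gene start (GRCm38.p6), where it occurs in 19.2% of all 32851 promoters. Of the 26 reported Kif genes with a promoter entry, it was found in 9 of 11 division kinesins, in 0 of 6 transport kinesins and in 2 of 6 of the cilium class. Among called genes with an entry, it was present in Kif22, Kif2c and Kif26b, which rose, and in Kif11, which fell. It was absent from Kif2a, Kif17 and Kif1bp, which rose, and from Kif18a, Kif1b, Kif3b and Kif9, which fell. A link with the direction of change was not tested. The matches of Kif22, Kif2c, Kif11 and Kif23, the most abundant division kinesin after Kif22, are shown 5′ to 3′ on the strand of the gene. The element or its reverse complement is in capitals. They lie at chr7:127042420-127042449 (minus strand) and chr7:127042618-127042647 (minus) for the 2 matches of Kif22, and at chr4:117178858-117178887 (minus), chr19:37376351-37376380 (plus) and chr9:61946780-61946809 (minus), in the order printed.
Kif22 near: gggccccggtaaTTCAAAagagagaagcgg
Kif22 far: ccaacctggcaaTTCAAAagcctgaaagtg
Kif2c: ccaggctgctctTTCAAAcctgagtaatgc
Kif11: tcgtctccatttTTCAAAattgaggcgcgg
Kif23: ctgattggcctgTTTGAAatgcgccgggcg
Relative to the annotated start of the gene, the element begins at bases -17 and -215 in Kif22, -19 in Kif11, -103 in Kif2c and 2 in Kif23. The downstream end of the stretch searched matched a GENCODE M21 transcript of the gene in Kif22, but not in Kif11, Kif2c or Kif23. The distance from the transcript start is therefore less certain in those genes.

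Of the 9 transport kinesins, 0 rose, 2 fell and 7 did not pass (22.2% called, against 33.4% of all genes tested). Kif21b had the largest fold change of all 30 genes. It encodes a kinesin-4 that restrains microtubule growth and is known from neurons and T cells. It had 4.66, 4.48 and 2.46 CPM in knockout libraries, against 15.96, 12.4 and 16.3 CPM in wild-type libraries (3.85-fold lower, -1.95 ± 0.25, adjusted p = 0.000585). These levels rest on 163, 167 and 90 counts in knockout libraries and 643, 439 and 529 counts in wild-type libraries, and every knockout library was below every wild-type library. Its paralog Kif21a, at 498 counts in all, stood at -0.45 ± 0.33 (adjusted p = 0.335).

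Kif1b, whose products carry mitochondria and vesicle precursors in neurons, also fell. It had 53.7, 48.4 and 51.0 CPM in knockout libraries, against 62.9, 72.3 and 69.1 CPM in wild-type libraries, without overlap (1.33-fold lower, -0.42 ± 0.09, adjusted p = 0.00767). With the GC and length correction it was at -0.23 (adjusted p = 0.0806). Kinesin-1, the conventional carrier of cargo, was represented by Kif5b and Kif5c, and neither passed. Kif5c was at -0.28 (adjusted p = 0.0587), a value that passed with no scaling factors and in DESeq2, and Kif5b at 0.08 (adjusted p = 0.755). Kif16b, a carrier of early endosomes, was at 0.25 (adjusted p = 0.0750) and passed in 4 of 15 alternatives. Kif13a, Kif13b and Kif1c, which carry vesicles, lay between 0.01 and 0.11.

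The cilium class split within the kinesin-2 family. Kif17, a homodimeric kinesin-2, was the second most abundant kinesin mRNA of the oocyte. It had 943, 1438 and 776 CPM in knockout libraries, against 625, 710 and 750.1 CPM in wild-type libraries (1.51-fold, 0.60 ± 0.19, adjusted p = 0.0417). The groups did not overlap, but knockout replicate 2 stood far above the other libraries of its group. Without that library the log2 fold change was 0.32 (adjusted p = 0.0593), and without wild-type replicate 1, 2 or 3 the adjusted p was 0.138, 0.101 or 0.0812. The call was also lost with the GC and length correction (0.32, adjusted p = 0.282), in limma-voom (0.0526) and with no scaling factors (0.0514).

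Kif3b fell while Kif3a, with whose product it forms the heterodimeric kinesin-II of intraflagellar transport, did not. Kif3b had 8.15, 9.52 and 11.4 CPM in knockout libraries, against 18.8, 19.0 and 18.3 CPM in wild-type libraries (1.93-fold lower, -0.95 ± 0.15, adjusted p = 0.00175). No knockout library came near the wild-type range. Kif3a averaged 55.8 ± 4.16 CPM in knockout and 47.6 ± 2.27 CPM in wild type (0.23 ± 0.09, adjusted p = 0.0881), and passed with upper-quartile factors and after the GC and length correction, where the adjusted p was as low as 0.0236. The ratio of Kif3a to Kif3b counts was 6.66, 6.35 and 4.62 in knockout libraries and 2.66, 2.39 and 2.58 in wild-type libraries. This ratio was chosen after the values were seen and was not tested. Kifap3, the accessory subunit of the same complex, was at 0.49 ± 0.19 (adjusted p = 0.0720).

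Kif9, a kinesin of motile cilia and sperm flagella, had 31.8, 31.8 and 39.6 CPM in knockout libraries, against 40.9, 46.1 and 43.7 CPM in wild-type libraries (1.26-fold lower, -0.34 ± 0.12, adjusted p = 0.0494). The gap between the groups was narrow, from 39.6 to 40.9 CPM. The call was lost in 9 of 15 alternatives, including without knockout replicate 1 or 2 or any wild-type library (adjusted p 0.0707 to 0.164). Kif27, a relative of the Hedgehog pathway kinesin Kif7 that is known from motile cilia, did not pass (0.45, adjusted p = 0.481).

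Of the 2 kinesin-11 genes, whose products have divergent motor domains, 1 rose and 1 did not pass. Kif26b, which acts in Wnt5a signalling and kidney development, rose at low levels. It had 9.44, 4.53 and 8.34 CPM in knockout libraries, against 3.13, 4.31 and 2.74 CPM in wild-type libraries (2.19-fold, 1.13 ± 0.30, adjusted p = 0.0194). Knockout replicate 2 was close to the wild-type range. The adjusted p was 0.0650 without knockout replicate 1, 0.0699 without wild-type replicate 1 and 0.0760 without wild-type replicate 3. Kif26a was at -0.35 (adjusted p = 0.474), and at 0.17 without wild-type replicate 1.

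Kif1bp encodes the kinesin-binding protein, which holds several kinesins off microtubules. It had 111, 119 and 86.5 CPM in knockout libraries, against 82.6, 80.7 and 81.0 CPM in wild-type libraries (1.30-fold, 0.38 ± 0.12, adjusted p = 0.0347). The wild-type libraries lay within 2 CPM of each other, and all knockout libraries were above them. The call was lost with no scaling factors (adjusted p = 0.0553) and without knockout replicate 1 or 2 or any wild-type library (0.0863 to 0.107).

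The 12 remaining Kif genes were below 60 counts over the 6 libraries. No count was seen for Kif12 or Kif2b in any library. Kif6, Kif5a and Kif7 had 7, 8 and 9 counts, and Kif1a, Kif16bos, Kif28, Kif22-ps and Kif19a between 23 and 35. Kif3c had 53 and Kif4-ps 58 counts, just under the threshold, while the lowest reported gene, Kif27, had 313. These 12 genes include the axonal motors Kif1a and Kif5a and the Hedgehog pathway kinesin Kif7. Multiply aligned reads have a tally of their own in the files, so a read that Kif22 or Kif4 shares with its pseudogene is in neither count.

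The Kif mRNAs that rose had a shorter median annotated 3′ untranslated region (UTR) than those that fell. In the GENCODE M21 transcript with the longest coding sequence of each gene, the median 3′ UTR was 528 bases in the 7 genes that rose and 2350 bases in the 6 that fell. Over all protein-coding genes the order was the same, with medians of 682 bases in 2192 genes that rose, 1450 in 2630 that fell and 940 in all 12880. The 3′ UTRs of the 2 most abundant kinesin mRNAs were among the shortest, with 62 bases in Kif22 and 65 in Kif17, and those of Kif21b (4042 bases) and Kif3b (3235 bases) among the longest. Kif26b rose with a 3′ UTR of 6972 bases, and Kif9 and Kif18a fell with 397 and 507 bases. Across the 30 genes, Spearman's rho between 3′ UTR length and log2 fold change was -0.415, a description across genes, which are not independent replicates. Annotated ends need not be those used in oocytes. The annotation also holds longer transcripts than the one used for some of these genes, and their 3′ UTRs were not examined. The longest had 3586 bases against 2115 in Kif22, 5304 against 2570 in Kif2a and 6509 against 3369 in Kif18a. For Kif17 the transcript used, of 3453 bases, was the longest. A poly(A) signal, AATAAA or ATTAAA, lay in the last 50 bases in 4 of 7 Kif genes that rose and 6 of 6 that fell. It did so in 76.5% of all tested protein-coding genes. The genes that rose without one were Kif22, Kif17 and Kif20a, and whether their annotated 3′ UTRs are complete was not tested. Whole transcripts differed in the same way, with medians of 2840 bases in the Kif genes that rose and 5230 in those that fell. The part of length in the calls was not tested beyond the correction above. That correction used the longest transcript of each gene and not the one measured here.

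**Figure D5:**
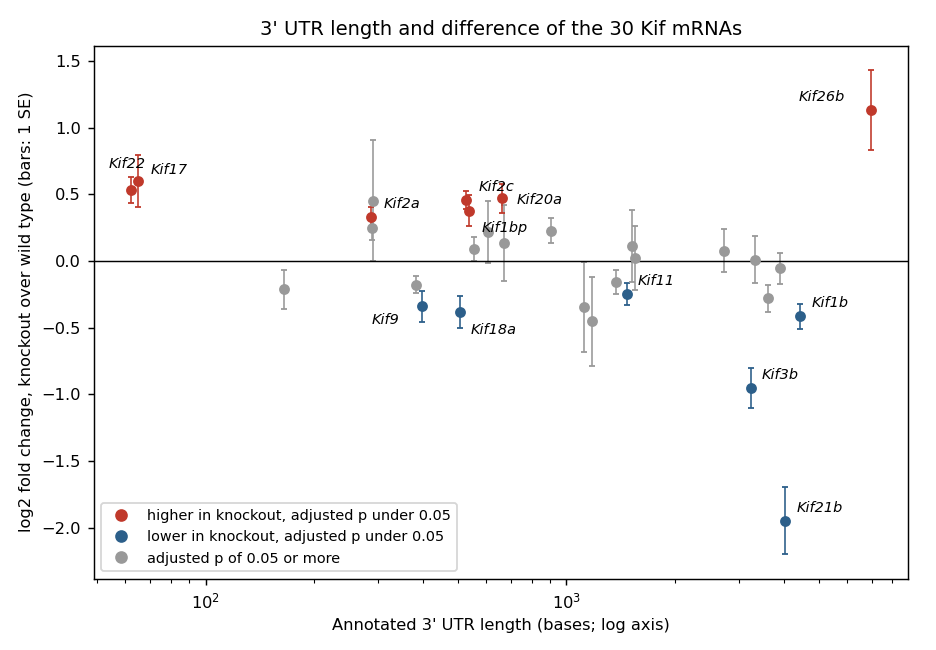
Annotated 3′ UTR length of the 30 Kif mRNAs (horizontal log axis, bases) against the log2 fold change of Zar1 knockout over wild type (vertical axis, bars of 1 SE). Genes that rose are red, genes that fell blue and the rest grey; Kif22 and Kif17 lie at 62 and 65 bases, Kif3b and Kif21b at 3235 and 4042, and Kif26b at 6972.

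In Xenopus oocytes ZAR proteins bind translational control sequences in 3′ UTRs, here spelled TTTGTCT with the variants ATTGTCT alongside TTTATCT together with ATTATCT, and searched on the mRNA strand. At least 1 was found in 2 of 7 Kif genes that rose and in 4 of 6 that fell, against 29.6% of all protein-coding genes that rose, 49.9% of those that fell and 38.0% of all tested. A longer 3′ UTR holds more such matches by its length alone. Kif3b held 4 and Kif21b 1. Cytoplasmic polyadenylation elements, spelled TTTTAT or TTTTAAT, were found in 4 of 7 Kif genes that rose and 4 of 6 that fell, against 59.5% of all tested. The matches of the 2 genes with the largest falls are shown 5′ to 3′, written as DNA, with the element in capitals. They start at bases 31, 1405 and 3161 of the 3′ UTR of Kif3b (the match at base 3153 lies beside the last) and at base 413 of that of Kif21b.
Kif3b first: atgggaacagcATTGTCTtctgagagaaga
Kif3b second: cagtgtttgccTTTGTCTgtgtgaaaggcc
Kif3b last: tgtattatctcTTTGTCTagcaatgtaaaa
Kif21b: caactggccacATTGTCTcctgctgagcca
Kif22, by contrast, held none, and its short annotated 3′ UTR ended with a cytoplasmic polyadenylation element in capitals here.
Kif22: acgtgttgtgtaaatacagtTTTTATtcca
A match is a description of these letters and not a binding site.

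Of 5 tested kinesin motors whose symbols fall outside the pattern, 3 rose and 1 fell (80%, against 33.4% of all genes tested). The minus-end motor genes Kifc3 (43.8 ± 6.54 CPM in knockout, 29.4 ± 2.81 CPM in wild type, adjusted p = 0.00965), Kifc5b (12.8 ± 4.16 and 7.88 ± 0.372 CPM, adjusted p = 0.0422) and Kifc1 (84.8 ± 5.04 and 64.6 ± 12.1 CPM, adjusted p = 0.0454) rose. Kifc1 and Kifc5b are near-identical copies, so the split of their counts is uncertain and their rises may not be separate. Stard9 fell (-1.50 ± 0.48, adjusted p = 0.0411) at levels below 1 CPM. The calls of Kifc1, Kifc5b and Stard9 lay near the threshold, and how they held under the alternatives is not given. Cenpe, the kinesin-7 of kinetochores, was at 0.13 (adjusted p = 0.284).

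Among 12 tested light chains and adaptors of kinesins, 1 rose, 1 fell and 10 did not pass (16.7% called, against 33.4% of all genes tested). Prc1, which bundles midzone microtubules with KIF4, rose to 269 ± 33.4 CPM in knockout, against 203 ± 8.63 CPM in wild type (0.41 ± 0.09, adjusted p = 0.0103). Racgap1, the partner of the Kif23 product in centralspindlin, fell to 168 ± 7.28 CPM in knockout, against 231 ± 19.3 CPM in wild type (-0.46 ± 0.08, adjusted p = 0.00292). The mitochondrial adaptor genes Rhot1, Rhot2, Trak1 and Trak2 did not pass.

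Genes of dynein, the motor that walks to microtubule minus ends, and of its activators numbered 28 tested, of which 10 rose, 6 fell and 12 did not pass. The share of called genes was 57.1%, against 33.4% of all genes tested. Hook2, a dynein adaptor, averaged 48.7 ± 5.51 CPM in knockout and 16.4 ± 2.21 CPM in wild type (1.57 ± 0.14, adjusted p = 7.5e-05), and the dynactin subunit gene Actr1b 16.6 ± 4.85 and 4.44 ± 0.835 CPM (1.91 ± 0.24). The intermediate chain genes Dync1i1 (-2.91 ± 0.31) and Dync1i2 (-0.60 ± 0.08) both fell.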

How the data were processed

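RNA-seq of 6 oocyte pools was used. The files deposited by the authors hold unnormalized counts, a whole number for each gene and library. The submitters' processing notes name bcl2fastq (2.20.0.422), STAR (2.7.8a), HTSeq (0.13.5), cutadapt (2.8) and the build mm39. They do not name an annotation release or a strand setting. Symbols were matched by Ensembl ID for 52093 of 53700 gene rows, and all 42 Kif entries of the name table were found. Reads lying in more than 1 gene, 4.21% to 4.42% of each library, were left out of gene counts. The members and lists were chosen with earlier results of these data known.

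A single fit covered all genes in edgeR (4.0.16, R 4.3.3), with filterByExpr, TMM factors, glmQLFit and glmQLFTest on genotype. Tests were two-sided and adjusted by Benjamini-Hochberg over 16473 genes. SE is the absolute log2 fold change over the square root of F. CPM are given as mean ± SD (n = 3). The steps were tested on simulated data in which 200 genes changed, with rises and falls at equal odds. Far more genes were called in the real data, so the simulation does not test the scaling. Libraries of a group differed beyond sampling noise (chi-square per degree of freedom 12.8 to 39.9), so none was counted as a duplicate. Named genes are all Kif genes with 60 or more counts, with per-library values for the 13 called and the 5 most abundant, up to 4 called genes of each companion list, and Zar1. Kif3a, Kifap3, Cenpe, the Rhot and Trak genes, marker genes and overlapping neighbours were given values or named outside that rule. Lengths, GC content and 3′ UTRs are from GENCODE M21 (GRCm38) and promoters from RefSeq (GRCm38.p6), builds other than that of the counts.

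The alternatives used upper-quartile, RLE or no scaling factors, no filter or 1 CPM in 3 libraries, DESeq2 (1.42.0), limma-voom (limma 3.58.1), a replicate block, an adjusted p of 0.01, or left out each library. A further one, chosen after seeing the data, took lowess trends over GC content and over length, both of the longest transcript of each gene, as offsets. It covered 99.7% of tested genes.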

Additional observations from a re-analysis of the deposited data

How the results depend on the processing

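At an adjusted p of 0.01, 3 Kif genes rose and 3 fell, and 3032 genes were called in all. With upper-quartile factors 9 Kif genes rose and 3 fell, with no scaling factors 5 rose and 8 fell, and after the GC and length correction 8 rose and 2 fell. Leaving out 1 library at a time gave 3 to 8 Kif genes higher (3 without wild-type replicate 1 or 3), 3 to 7 lower (3 without any 1 wild-type library) and 3826 to 5634 genes called in all. The cause was not tested. The gain of the Kif share of counts ranged from 0.0525 to 0.0802 percentage points without 1 library, and Zar1 kept its call throughout.

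Among genes that did not pass, 9 changes of sign occurred in the settings with all libraries: Kif13b with no scaling factors (-0.0271), with no filter (-0.00245), in limma-voom (-0.0195) and with the replicate block (-0.0133), Kif1c with no scaling factors (-0.0121), in limma-voom (-0.0182) and with the block (-0.00434), and Kif14 (0.166) and Kif20b (0.0873) after the GC and length correction. Without 1 library the log2 fold change ranged from -0.101 to 0.257 for Kif13a, -0.188 to 0.171 for Kif13b, -0.168 to 0.0565 for Kif14, -0.0901 to 0.349 for Kif18b, -0.152 to 0.233 for Kif1c, -0.612 to 0.169 for Kif26a and -0.1 to 0.206 for Kif5b.

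Knockout and wild-type libraries share replicate numbers only: deviations of same-numbered libraries correlated between -0.042 and -0.00898. With the replicate block 7 Kif genes rose and 4 fell, and 4838 genes were called. In the 7 genes that did not pass with both group means under 10 CPM, the SE of the log2 fold change was 0.23 to 0.45, so differences of the size seen in Kif22 were mostly not detectable there.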
